A study of Mus musculus with 2 samples.

Results

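Genes for growth factors, morphogens, guidance cues and their receptors made up 53 of the 3134 genes in a table of RNA recovered with the heterochromatin protein HP1 alpha. They were picked from the listed genes by symbol, with 31 name patterns such as Smad, Fzd, Ror, Eph, Slit and Sema. The patterns use no measured value, but they were chosen with earlier results of these data known. Of the patterns, 6 (Jag, Igf1r, Neo1, Nrg, Ntrk and Met) matched 0 of the genes analysed here. The 53 genes comprise 14 ligands, 32 receptors, 6 SMAD signal transducers and Bmp2k, a kinase gene that shares only its symbol prefix with the BMP ligands. All 53 are protein-coding in RefSeq, and 0 of them overlap another gene of the table.

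NIH3T3 cells, a mouse fibroblast line long kept in culture, were irradiated with ultraviolet light, which fixes RNA to the proteins it touches, and processed by eCLIP, a crosslinking and immunoprecipitation method in which RNA is cut from a gel blot with the protein. Per the labels, 1 library came from RNA precipitated with an anti-HP1 alpha antibody and 1 from the same kind of cells without antibody, called the input. For both, the labels describe RNA from the membrane region above the HP1 alpha band and name no genotype or treatment, while the count columns are headed MEF and mock. Each group has 1 library, so no difference between them could be set against a spread between replicates, no p-value was computed, and every interval below is a 95% counting interval.

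The table lists genes with at least 100 counts in 1 or both libraries, and sums to 513965 (HP1 alpha) and 830031 (input) counts, which are not sequencing depths. Of the 53 genes, 19 had fewer than 100 HP1 alpha counts and were listed through the input alone. Of 14 fibroblast markers, 9 were listed, among them Col1a1, Fn1 and Pdgfrb, against 0 of 7 immune and 0 of 6 epithelial markers, 1 of 6 endothelial markers (Flt1) and 1 of 7 neural markers (Map2). Among the 53 genes, counts ran from 42 to 1301 with the antibody and from 102 to 2604 in the input. Their median count was 157 and 219, against 107 and 186 over the whole table. Counts were scaled to 1000000 listed counts of their library, written CPM, and each gene's HP1 alpha level was divided by its input level to give its ratio. A gene was called higher or lower when this ratio passed 2-fold, or in a second rule 1.5-fold, with an interval that excluded 1.

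As background, the secreted ligands of these families act through receptors at the cell surface. TGF-beta and BMP ligands bind serine/threonine kinase receptors that phosphorylate SMAD proteins, which then enter the nucleus. Wnt ligands bind Frizzled receptors with the co-receptors LRP5 and LRP6, or the receptor tyrosine kinases ROR1 and ROR2. FGFs, PDGFs, EGF-like ligands and insulin act on receptor tyrosine kinases. Slits, semaphorins, ephrins and netrins steer migrating cells and axons through Robo, plexin and neuropilin, Eph, and UNC5 receptors. HP1 alpha itself binds methylated histone H3 in heterochromatin.

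The 4 genes called higher at 1.5-fold (Ror1, Ror2, Slit3 and Smad6) are shown by the 250 bases before their RefSeq start sites. Fzd1, 1 of the genes called lower, is shown with them. Fzd2, Ephb4, Wnt5a and Notch3 had lower ratios than Fzd1, and Fzd2 and Wnt5a had no promoter entry. Sequences are from RefSeq on GRCm38.p6, and run 5′ to 3′ on the gene's strand. The windows are chr4:100095541-100095790 on the plus strand for Ror1, chr13:53286125-53286374 on the minus strand for Ror2, chr11:35121206-35121455 on the plus strand for Slit3, chr9:64022060-64022309 on the minus strand for Smad6 and chr5:4758217-4758466 on the minus strand for Fzd1. The Smad6 window runs into the span given for the gene below, which reaches 64022085, while the other windows stop just before the span. Capitals mark GC boxes, searched as GGGCGG and its reverse complement CCGCCC, with overlapping matches counted.
Ror1: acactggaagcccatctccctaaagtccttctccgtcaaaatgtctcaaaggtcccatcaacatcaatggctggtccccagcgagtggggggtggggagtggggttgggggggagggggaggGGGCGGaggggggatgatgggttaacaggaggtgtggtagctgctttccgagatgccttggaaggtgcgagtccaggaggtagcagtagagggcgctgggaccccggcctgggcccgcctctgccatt
Ror2: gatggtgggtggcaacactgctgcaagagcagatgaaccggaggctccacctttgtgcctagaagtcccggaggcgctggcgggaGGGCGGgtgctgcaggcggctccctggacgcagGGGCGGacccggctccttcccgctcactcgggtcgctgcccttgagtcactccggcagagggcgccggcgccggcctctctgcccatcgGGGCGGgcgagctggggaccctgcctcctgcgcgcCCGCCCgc
Slit3: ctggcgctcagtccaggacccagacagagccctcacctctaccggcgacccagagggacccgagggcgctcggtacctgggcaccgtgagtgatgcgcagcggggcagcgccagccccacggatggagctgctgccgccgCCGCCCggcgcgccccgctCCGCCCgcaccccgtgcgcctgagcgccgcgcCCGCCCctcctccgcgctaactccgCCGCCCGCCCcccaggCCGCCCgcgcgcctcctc
Smad6: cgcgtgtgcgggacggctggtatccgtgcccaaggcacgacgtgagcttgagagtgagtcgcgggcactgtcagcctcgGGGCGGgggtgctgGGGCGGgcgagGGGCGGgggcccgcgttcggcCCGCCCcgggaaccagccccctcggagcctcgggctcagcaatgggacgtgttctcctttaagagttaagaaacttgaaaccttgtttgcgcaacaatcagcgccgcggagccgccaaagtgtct
Fzd1: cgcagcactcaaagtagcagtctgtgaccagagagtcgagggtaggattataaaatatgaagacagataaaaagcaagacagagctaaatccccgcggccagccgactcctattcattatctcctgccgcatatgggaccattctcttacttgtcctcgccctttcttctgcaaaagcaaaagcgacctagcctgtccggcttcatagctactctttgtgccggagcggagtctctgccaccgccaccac

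The Ror1 window held 1 GC box, those of Ror2 and Smad6 held 4 each, that of Slit3 held 6 and that of Fzd1 held 0. G and C made up 62.4% of the Ror1 window, 73.2% for Ror2, 78.8% for Slit3, 66.8% for Smad6 and 51.2% for Fzd1. Of the 53 genes, 41 had a promoter entry, and 31 of these windows (75.6%) held a GC box, against 67.4% of 2448 listed genes with an entry and 32.7% of all 32851 windows of this length. Windows of the genes called higher held a GC box in 4 of 4, and those of genes called lower in 4 of 5, with a median G and C share of 64.8% in the latter. Fzd1 is the exception among the 5 and has the lowest G and C share of them, so it does not stand for the lower genes. The table holds 1 count per gene and library, so these windows carry no measurement of their own.

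Over all 53 genes, the HP1 alpha and input levels were close. They held 2.64% (2.6 to 2.68, exact binomial) of the HP1 alpha counts and 2.52% (2.48 to 2.55) of the input counts, and the ratio of these shares was 1.05 (1.03 to 1.07). The ratio was above 1 for 27 genes and below 1 for 26, with a median log2 ratio of 0.014 against -0.21 over the table. Of the 53, 32 lay above the median gene of the table, 23 lay in its highest 25% and 11 in its lowest 25%. TMM and DESeq2 scaling raise every log2 ratio by 0.20 and 0.21, and Smad5, Fgfr1, Ptch1, Sema4b and Bmp2k change direction with them.

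At 2-fold, Ror1 and Ror2 were called higher (3.77% of the 53 genes, against 2.36% of all listed genes), and Fzd2 was called lower (1.89% against 0.83%). At 1.5-fold, Slit3 and Smad6 joined the higher genes, making 4 of 53 (7.55% against 7.63% of the table). The lower genes at 1.5-fold were Fzd2, Ephb4, Wnt5a, Notch3, Fzd1, Tgfb1 and Plxnd1, 7 of 53 (13.2% against 12.3%). All 7 are among the 19 genes that entered the table through the input alone. At 1.5-fold both shares are near those of the table. Intervals lay above 1 for 13 genes (24.5% against 15.4%) and below 1 for 18 (34.0% against 32.6%). All 13 stayed above 1 under the 4 other scalings (15.4% of the table did). Each of these scalings raises every log2 ratio, so that outcome was fixed in advance. Of the 18, which could change, 9 stayed below 1 (17% against 12.4%).

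**Figure D1:**
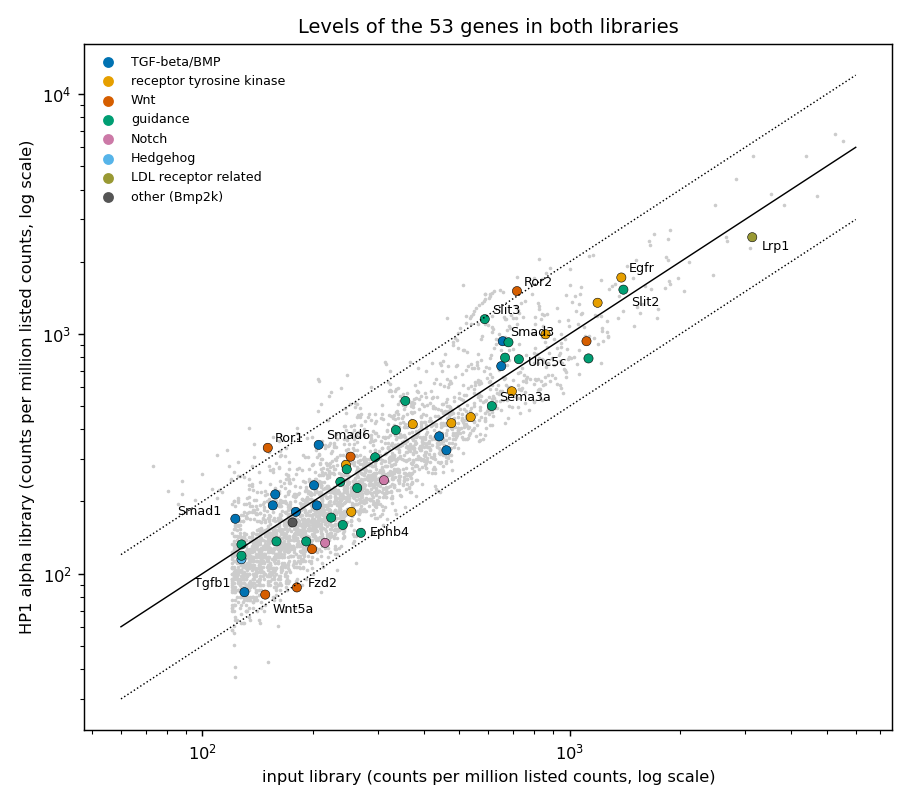
CPM of listed counts in the input (x axis) and the HP1 alpha library (y axis), both on log scales. Grey points are all 3134 listed genes and coloured points the 53 genes by pathway. The solid line marks equal levels and the dotted lines 2-fold differences. Ror1 and Ror2 lie above the upper dotted line and Fzd2 below the lower one.

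The Wnt group held the highest and the lowest ratios of the 53 genes. Ror1 (ENSMUSG00000035305.5), a receptor for WNT5A-type signals, had 172 counts with the antibody and 125 in the input, or 335 and 151 CPM. Its ratio of 2.22 (1.76 to 2.82) was above 98.6% of the other listed genes. In GRCm38.p6 it occupies chromosome 4 from 100095791 to 100444806.

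Ror2 (ENSMUSG00000021464.10), the paralog of Ror1 and likewise a WNT5A receptor, had 775 counts against 596, or 1508 and 718 CPM. Its ratio was 2.10 (1.89 to 2.34), above 98.1% of the other genes, and it lies on chromosome 13 from 53109317 to 53286124. The paralogs did not differ beyond counting error, with a ratio of their ratios of 1.06 (0.815 to 1.38). In the authors' deposited table, which scales to total mapped reads, the fold is 2.29 for Ror1 and 2.16 for Ror2.

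Fzd2 (ENSMUSG00000050288.6), a Frizzled receptor gene on chromosome 11 from 102604431 to 102608058, had the lowest ratio of the 53. It had 45 antibody counts and 150 input counts, or 87.6 and 181 CPM, a ratio of 0.485 (0.339 to 0.680), and under TMM and DESeq2 scaling and the authors' constant it was no longer past 2-fold. Fzd1 (ENSMUSG00000044674.5), on chromosome 5 from 4753839 to 4758216, had 65 counts against 165, or 126 and 199 CPM, a ratio of 0.636 (0.470 to 0.853). Both Frizzled genes span under 5 kb, at 3.63 and 4.38 kb, and are the shortest of the 53.

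The ligand gene Wnt5a (ENSMUSG00000021994.10, chromosome 14 from 28504543 to 28527448) had 42 counts against 123, or 81.7 and 148 CPM, with a ratio of 0.551 (0.379 to 0.789). Only 2.65% of the other listed genes lay below it. The ligand and its ROR receptors thus stood at opposite ends, and the ratio of Ror2 was 3.81 times (2.61 to 5.63) that of Wnt5a. Ror2 spans 177 kb and Wnt5a 22.9 kb, and relative to genes of like span, a measure described with gene span further on, the factor was 2.46. For Fzd2 and Wnt5a, with HP1 alpha counts of 61 or fewer, the listing limit of 100 counts in the input alone fixed a ratio below 1, though not its size. Tgfb1, Ptch1 and Sema4b carry the same limit.

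The LRP co-receptors of the Wnt pathway, which pair with Frizzleds, diverged. Lrp5 had 158 against 210 counts, for a ratio of 1.22 (0.982 to 1.5). Lrp6 (chromosome 6 from 134446476 to 134566913) had 479 counts against 921, or 932 and 1110 CPM, a ratio of 0.840 (0.751 to 0.939). The ratio of Lrp5 was 1.45 times (1.14 to 1.84) that of Lrp6, although their spans are alike at 102 and 120 kb.

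**Figure D2:**
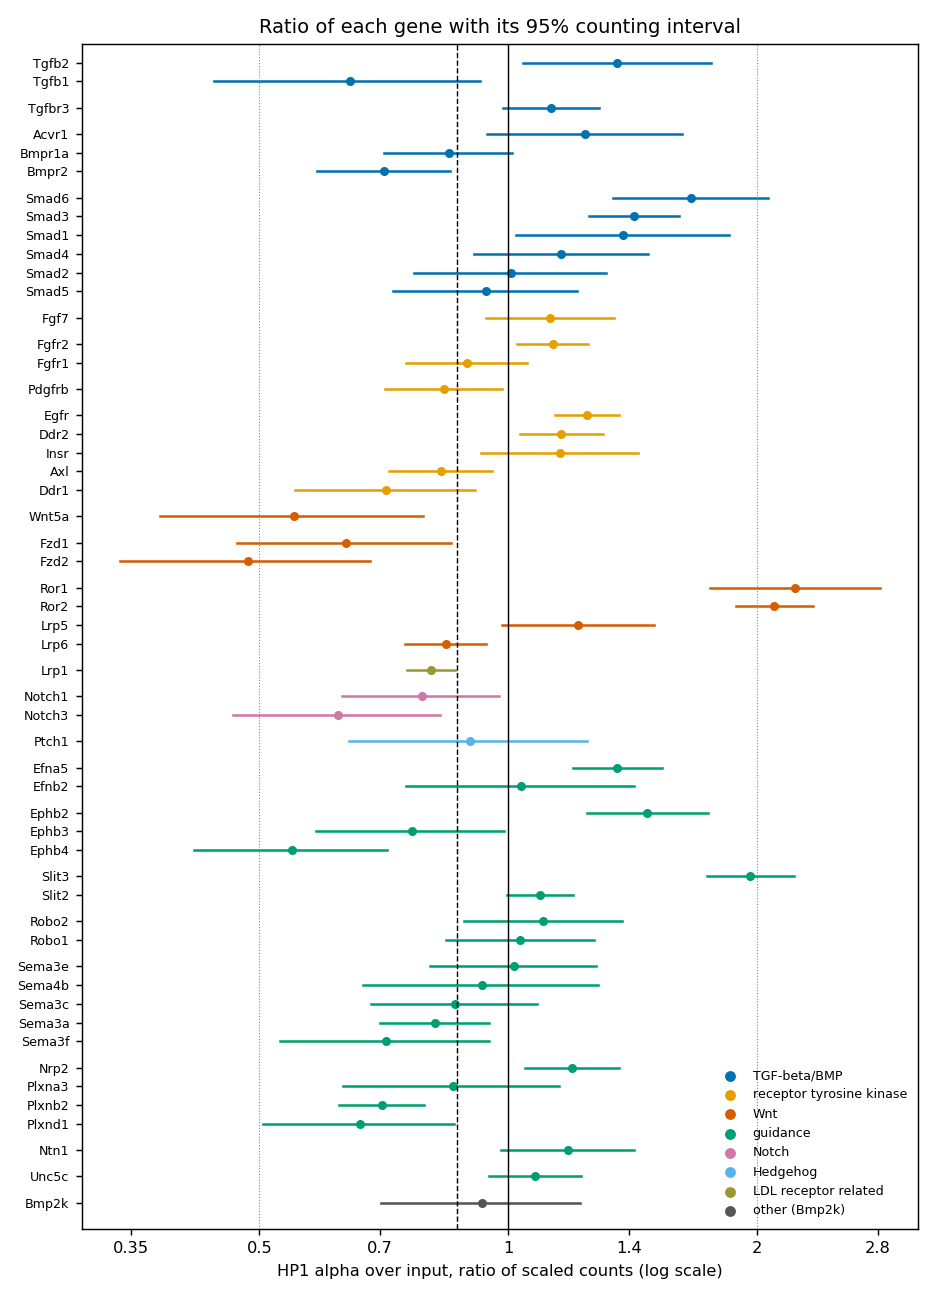
Ratio of HP1 alpha over input for each of the 53 genes on a log scale, grouped by family and coloured by pathway. Points are ratios and bars their 95% counting intervals from 1 library per group. The solid line marks 1, the dashed line the median of the table, and the dotted lines 2-fold. Ror1 and Ror2 have the highest ratios and Fzd2, Ephb4 and Wnt5a the lowest.

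In the TGF-beta and BMP group, the SMAD genes lay above the ligand and receptor genes as a group. The 6 SMAD genes had a median log2 ratio of 0.34, the 4 receptor genes -0.032 and the 2 ligand genes -0.093, against -0.21 over the table. All 6 SMAD genes exceeded the median of the table, and together they held 0.205% (0.193 to 0.218) of the HP1 alpha counts and 0.157% (0.149 to 0.166) of the input. The ratio of these shares was 1.31 (1.2 to 1.42). Smad3 alone gave 479 of their 1055 HP1 alpha counts and 545 of their 1305 input counts, so it weighs most in this ratio.

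Smad6 (ENSMUSG00000036867.7), which encodes an inhibitory SMAD of BMP signalling, had 177 counts against 172, or 344 and 207 CPM. Its ratio was 1.66 (1.34 to 2.06), above 94.9% of the other genes, and it lies on chromosome 9 from 63953076 to 64022085. Smad3, a receptor-activated SMAD of the TGF-beta branch, had 479 against 545 counts, a ratio of 1.42 (1.25 to 1.61). Smad1 (chromosome 8 from 79338395 to 79399428), a SMAD of the BMP branch, had 87 counts against 102, or 169 and 123 CPM, a ratio of 1.38 (1.02 to 1.85). These were the 3 SMAD genes with intervals above 1.

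The other SMAD genes had intervals that included 1. Smad4, the common partner SMAD, had 120 against 167 counts, for a ratio of 1.16 (0.910 to 1.48). Smad2, the paralog of Smad3, had 93 against 149 counts, a ratio of 1.01 (0.770 to 1.32). Smad5, the paralog of Smad1, had 99 against 170 counts, a ratio of 0.941 (0.727 to 1.21). The ratio of Smad3 was 1.41 times (1.05 to 1.90) that of Smad2. For Smad1 over Smad5 the factor was 1.465, with a wider interval of 0.985 to 2.18 that included 1. On the scale relative to genes of like span the factors were 1.26 and 1.39.

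The ligand genes stood on either side of 1. Tgfb2, a TGF-beta ligand gene, had 110 against 131 counts, for a ratio of 1.36 (1.04 to 1.76). Tgfb1 (ENSMUSG00000002603.11, chromosome 7 from 25687002 to 25705077), whose product is stored in the matrix in latent form, had 43 counts against 108, or 83.7 and 130 CPM, a ratio of 0.643 (0.441 to 0.924). The ratio of Tgfb2 was 2.11 times (1.34 to 3.35) that of Tgfb1, and 1.78 times relative to genes of like span.

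Among the receptors, Acvr1, a BMP type I receptor gene, had 99 against 129 counts, for a ratio of 1.24 (0.944 to 1.62). Bmpr1a, another type I receptor gene, had 192 against 366 counts, a ratio of 0.847 (0.708 to 1.01). Bmpr2, the type II receptor gene with which both can pair, had 168 against 383 counts, a ratio of 0.708 (0.587 to 0.852), and its interval stayed below 1 under every scaling. Tgfbr3, the co-receptor betaglycan, had 377 against 540 counts, a ratio of 1.13 (0.986 to 1.29). Acvr1 exceeded Bmpr2 by 1.75 times (1.26 to 2.43) although they span 120 and 114 kb.

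The guidance genes, 20 in all, covered a wide range around a median log2 ratio of 0.038. Slit3 (ENSMUSG00000056427.6), a secreted repellent for cells with Robo receptors, had 592 counts against 487, or 1152 and 587 CPM. Its ratio of 1.96 (1.74 to 2.22) was above 97.4% of the other genes, and the gene lies on chromosome 11 from 35121456 to 35708507. Slit2 (chromosome 5 from 47981291 to 48307735), its paralog, had 786 counts against 1161, or 1529 and 1399 CPM, a ratio of 1.09 (0.997 to 1.2). The ratio of Slit3 was thus 1.80 times (1.54 to 2.09) that of Slit2.

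The Robo receptor genes had ratios near that of Slit2. Robo1 had 157 against 245 counts, a ratio of 1.04 (0.842 to 1.27). Robo2 had 140 against 205 counts, a ratio of 1.10 (0.883 to 1.37). They did not differ from each other beyond counting error (0.938, 0.692 to 1.27), and Slit3 exceeded Robo1 by 1.90 times (1.49 to 2.41).

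The Eph receptors, which bind membrane-bound ephrins, split. Ephb2 had 270 against 296 counts, for a ratio of 1.47 (1.24 to 1.74). Ephb3 had 88 against 186 counts, a ratio of 0.764 (0.586 to 0.990). Ephb4 (ENSMUSG00000029710.11, chromosome 5 from 137350109 to 137374522), the receptor of ephrin-B2 in vessels, had 76 counts against 224, or 148 and 270 CPM, a ratio of 0.548 (0.417 to 0.714).

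The ratio of Ephb2, which spans 189 kb, was 2.69 times (1.96 to 3.71) that of Ephb4, which spans 24.4 kb, and 1.71 times relative to genes of like span. Of the ephrin genes, Efna5 (chromosome 17 from 62602957 to 62881317) had 474 counts against 565, or 922 and 681 CPM, a ratio of 1.36 (1.2 to 1.53). Efnb2, the ligand gene for Ephb4, had 68 against 106 counts, a ratio of 1.04 (0.753 to 1.42).

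The 5 semaphorin genes had a median log2 ratio of -0.21, equal to the table at this rounding. Of them 0 were called at 1.5-fold, where 7.63% of listed genes were called higher and 12.3% lower. Their median span was 155.5 kb, against 48.2 kb for the table. Set against genes of like span, their median ratio was 0.768. On that scale 3 of the 5 had intervals below 1 (11.8% of listed genes did) and 1 was called lower at 1.5-fold (2.4%). The 3 were Sema3a, Sema3e and Sema3c, which span 479, 231 and 155.5 kb. Such intervals were held by 22.9% of listed genes of 200 kb or more and by 99 of 483 from 100 to 200 kb. Sema3a, the classical collapsing factor for axons, had 257 counts against 509, or 500 and 613 CPM, for a ratio of 0.815 (0.699 to 0.949). Sema3f had 70 against 159 counts, a ratio of 0.711 (0.529 to 0.948), whereas Sema3c, Sema3e and Sema4b ranged from 0.863 to 1.02 with intervals that included 1. The semaphorin receptor genes also diverged: Nrp2, the neuropilin that binds SEMA3F, had 409 against 553 counts, a ratio of 1.19 (1.05 to 1.36).

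Plexins, which carry the semaphorin signal into the cell, had ratios below 1 for all 3 listed genes. So did 2166 of all 3134 listed genes. The share was 843 of 896 under 25 kb, where Plxna3 lies, and 598 of 697 from 25 to 50 kb, where Plxnb2 and Plxnd1 lie. On the scale of like span Plxna3 had 1.113, with an interval that included 1. There Plxnd1 had 0.8012 (0.6119 to 1.041) and Plxnb2 0.8811 (0.7822 to 0.991). Plxnd1 (ENSMUSG00000030123.11, chromosome 6 from 115954811 to 115995339), a receptor for SEMA3E, had 82 counts against 200, or 160 and 241 CPM, a ratio of 0.662 (0.506 to 0.860). Plxnb2 (chromosome 15 from 89155546 to 89182018) had 406 counts against 933, or 790 and 1124 CPM, a ratio of 0.703 (0.624 to 0.791). Plxna3 had 70 against 132 counts, a ratio of 0.856, with an interval of 0.632 to 1.15. Nrp2 exceeded Plxnb2 by 1.70 times (1.42 to 2.03), and by 1.33 times relative to genes of like span. The netrin gene Ntn1 and the netrin receptor gene Unc5c had 1.18 (0.981 to 1.42) and 1.08 (0.949 to 1.23).

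Receptor tyrosine kinase genes other than Ror1, Ror2 and the Eph genes, described above with the Wnt and guidance groups, were grouped with the ligand gene Fgf7. Of these 9 genes, 0 were called at 1.5-fold in either direction, where 7.63% of listed genes were called higher and 12.3% lower. Egfr (chromosome 11 from 16752203 to 16913907), the EGF receptor gene, had 883 counts against 1146, or 1718 and 1381 CPM, and a ratio of 1.24 (1.14 to 1.36). Fgfr2 (chromosome 7 from 130162451 to 130266808) had 693 counts against 988, or 1348 and 1190 CPM, a ratio of 1.13 (1.03 to 1.25). Ddr2 (chromosome 1 from 169972307 to 170110836), a collagen receptor gene of fibroblasts, had 512 counts against 713, or 996 and 859 CPM, a ratio of 1.16 (1.03 to 1.30). These 3 had intervals above 1, which the other scalings could only raise.

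Insr, the insulin receptor gene, had 146 against 204 counts, a ratio of 1.16 (0.928 to 1.44). Fgf7, a fibroblast-derived growth factor that acts on epithelial cells, had 216 against 310 counts, a ratio of 1.13 (0.941 to 1.34). Fgfr1 had 218 against 395 counts, a ratio of 0.891 (0.752 to 1.05). The remaining receptor genes of this group had intervals below 1, though not under TMM or DESeq2 scaling.

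These were Pdgfrb, a fibroblast marker, with 231 against 446 counts, a ratio of 0.836 (0.711 to 0.983), Axl with 0.829 (0.718 to 0.955) and Ddr1, the paralog of Ddr2, with 0.712 (0.552 to 0.913). Axl, the GAS6 receptor gene, had 296 against 577 counts. Ddr1 (chromosome 17 from 35681567 to 35704741) had 93 counts against 211, or 181 and 254 CPM, and the ratio of Ddr2 was 1.63 times (1.24 to 2.16) that of Ddr1. Ddr2 spans 139 kb and Ddr1 23.2 kb, and relative to genes of like span the factor was 1.21. On that scale Pdgfrb had 1.01, Axl 1.04, Ddr1 0.893, Egfr 1.05 and Ddr2 1.08, all with intervals that included 1. Of the 9 genes of this group, 8 lay above 1 there, as did 1548 of 3088 listed genes. Only Fgf7 and Fgfr2 had intervals above 1 on it (15.3% of listed genes did).

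The Notch receptor genes both had intervals below 1, as did 32.6% of listed genes. Both lie in the range of 25 to 50 kb, where 270 of 697 listed genes had such intervals. Relative to genes of like span Notch3 had 0.732 (0.546 to 0.971) and Notch1 0.917 (0.735 to 1.14). Notch3 (ENSMUSG00000038146.7, chromosome 17 from 32120820 to 32166896) had 69 counts against 179, or 134 and 216 CPM, for a ratio of 0.623 (0.465 to 0.826). Notch1 (chromosome 2 from 26457902 to 26503822) had 126 counts against 259, or 245 and 312 CPM, a ratio of 0.786 (0.630 to 0.976), which included 1 with TMM and DESeq2 factors. Ptch1 (chromosome 13 from 63508328 to 63573460), the Hedgehog receptor gene, had 59 counts against 106, or 115 and 128 CPM, a ratio of 0.899 (0.642 to 1.25).

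Lrp1 (chromosome 10 from 127538157 to 127621148), an endocytic receptor of the LDL receptor family, carried the most counts of the 53 genes, with 1301 against 2604. Its ratio was 0.807 (0.754 to 0.863), and its narrow interval stayed below 1 under every scaling. Bmp2k had 84 counts against 146, or 163 and 176 CPM, a ratio of 0.929 (0.702 to 1.22). By mean CPM, the genes with the most counts after Lrp1 were Egfr, Slit2, Fgfr2, Ror2, Lrp6, Plxnb2, Ddr2, Slit3 and Efna5, and of these only Ror2 and Slit3 passed 1.5-fold. Counts were not divided by transcript length, so they do not rank these genes by expression.

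Gene span, the distance from first to last base with introns, moved with the ratio. Spearman's rho between them was 0.61 over 3088 listed genes and 0.65 over the 53 genes, with every point taken from the same 2 libraries. The 53 genes were longer than the table, with a median span of 86.9 kb against 48.2 kb, and 24 of them (45.3%) spanned 100 kb or more, against 25.3% of listed genes. The 8 genes under 25 kb and 627 of the 896 listed genes of that span entered the table through the input alone, so the listing itself bears on their ratios and on both correlations. From 100 to 200 kb, where this held for 1 of 15 genes and 94 of 483 listed genes, 12 of the 15 had ratios above 1, as did 293 of the 483. Of the 483, 92 change direction between scalings, against 0 of the 15.

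**Figure D3:**
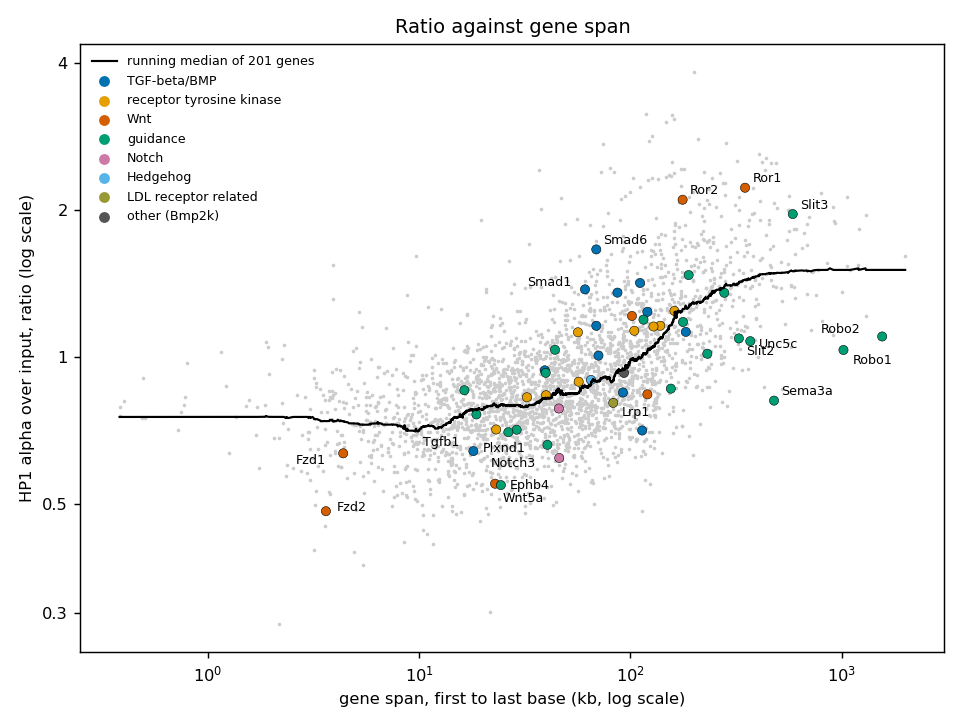
Gene span in kb (x axis, log scale) against the ratio of HP1 alpha over input (y axis, log scale). Grey points are the 3088 listed genes with a known span, the line is their running median and coloured points are the 53 genes. Ror1, Ror2 and Smad6 lie above the line, while Sema3a, Robo1, Robo2, Slit2 and Unc5c lie below it.

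Each ratio was therefore also divided by the median ratio of the 200 genes nearest in span. On this scale 0 of the 53 genes passed 2-fold, where 1.23% of listed genes were higher and 0.13% lower. Ror2 (1.70, 1.53 to 1.90), Ror1 (1.59, 1.26 to 2.02), Smad6 (1.86, 1.5 to 2.31) and Smad1 (1.58, 1.18 to 2.13) were called higher at 1.5-fold, 4 of 53 (7.55% against 5.34%). Fzd2 (0.662, 0.463 to 0.929) and Sema3a (0.564, 0.484 to 0.657) were called lower, 2 of 53 (3.77% against 2.4%). Slit3 at 1.36 (1.2 to 1.53) and 6 of the 7 lower genes, all but Fzd2, no longer passed 1.5-fold.

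Intervals lay above those genes' median for 11 of the 53 (20.8% against 15.3%) and below it for 15 (28.3% against 11.8%). The 53 genes had more counts than the table's median gene, which narrows their intervals, and the part of this in the shares was not tested. Of the SMAD genes, 6 of 6 had values above 1, with a median of 1.36. Their spans run from 39.4 to 111 kb.

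The longest genes of the group lay mostly on the other side. Of the 9 that span 200 kb or more, 7 lay below genes of like span, 6 of them with intervals below 1 (22.9% of the 297 listed genes of that span had such intervals). The median ratio of the 9 was 1.09, against 1.4 for those 297 genes. The 6 were Sema3a, Sema3e, Slit2, Robo1, Robo2 and Unc5c. All are guidance genes, but so is every gene of the 9 except Ror1. The other long guidance genes were Slit3, at 1.358 with an interval above 1, and Efna5, at 0.9865 (0.8712 to 1.117). The value was 0.715 (0.582 to 0.877) for Robo1, 0.762 (0.610 to 0.950) for Robo2, 0.775 (0.707 to 0.850) for Slit2 and 0.765 (0.673 to 0.870) for Unc5c.

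Sema3a, with 479 kb on chromosome 5 from 13124822 to 13603485, had a ratio above that of only 1.00% of the 200 genes nearest in span. Robo1 and Robo2 span 1020 and 1555 kb, longer than most of their 200 neighbours, whose spans start at 250 and 250 kb. Ror1, at 349 kb, and Slit3, at 587 kb, were the long genes with intervals above genes of like span. Slit3 and Slit2 thus differed in the same direction on both scales.

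**Figure D4:**
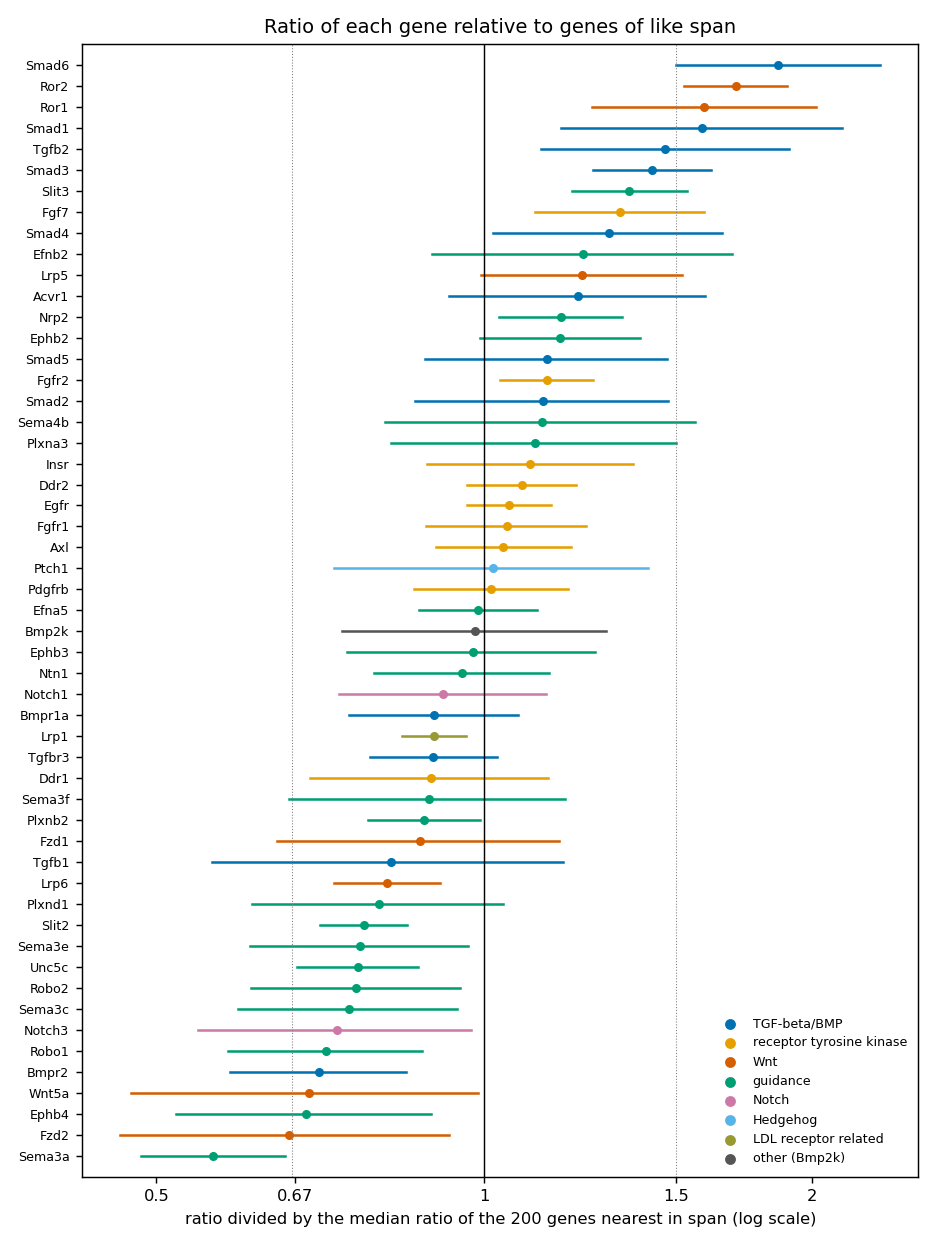
Ratio of each of the 53 genes divided by the median ratio of the 200 genes nearest in span, on a log scale, sorted by value. Bars are 95% counting intervals of 1 library per group, the solid line marks 1 and the dotted lines 1.5-fold. Smad6, Ror2, Ror1 and Smad1 are at the top and Sema3a and Fzd2 at the bottom.

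Other genes of the same pathways gave the setting for these values. From 5 lists of partners (signal transducers, modulators and target genes), 111 of 275 genes were in the table. Over all listed genes, 7.63% were called higher and 12.3% lower at 1.5-fold. The TGF-beta and BMP list had 1 of 16 called higher at 1.5-fold and 2 lower, with a median log2 ratio of -0.14. Ski, a nuclear corepressor that binds SMADs, was the higher one, with 594 against 555 counts, a ratio of 1.73 (1.54 to 1.94). Relative to genes of like span Ski had 1.93 (1.72 to 2.17) and Pmepa1, an inhibitor of SMAD signalling, 1.65 (1.38 to 1.98). Skil, the paralog of Ski, had 0.657 (0.456 to 0.934) and Ctgf, a TGF-beta target gene, 0.533 (0.355 to 0.784). Thbs1 and Fstl1 had the most counts, with ratios of 0.738 and 0.843.

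The Wnt list had 2 of 17 called higher and 2 lower, with a median of 0.0036. The higher genes, Tcf7l2 at 1.72 (1.54 to 1.94) and Tcf7l1 at 1.70 (1.47 to 1.97), encode DNA-binding partners of beta-catenin. Relative to genes of like span they had 1.35 and 1.44, so neither passed 1.5-fold there. The lower genes were Csnk1a1, a casein kinase gene, at 0.590 (0.482 to 0.719) and Dvl1, which encodes a Dishevelled protein that acts downstream of Frizzled, at 0.592 (0.409 to 0.843). Ctnnb1, the beta-catenin gene, had 405 against 695 counts, a ratio of 0.941 (0.831 to 1.07), and this lay above 1 with TMM and DESeq2 factors.

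The Notch and Hedgehog list had 2 of 19 called higher and 2 lower, with a median of -0.20. Maml3, a Notch coactivator gene, had 307 against 198 counts, a ratio of 2.5 (2.09 to 3.01), the only gene of this list past 2-fold. Gli2, a Hedgehog transcription factor gene, had 1.74 (1.48 to 2.06). Relative to genes of like span Maml3 had 1.76 and Gli2 1.34. Smo, the Hedgehog signal transducer at the membrane, had 0.570 (0.443 to 0.729) and Gas1, a Hedgehog co-receptor gene of 3.13 kb, had 0.622 (0.516 to 0.746). Gli3, another Hedgehog transcription factor gene, had the most counts, with a ratio of 1.39.

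The guidance list had 8 of 31 called higher and 1 lower, with a median of 0.12 and a median span of 121 kb. The higher genes were Srgap3, a Rac GTPase-activating gene downstream of Robo, at 2.10 (1.77 to 2.49), Ablim1, Fyn, Nck2, Vav3, Elmo1, Vav2 and Mical3, and the lower one was Vasp at 0.661 (0.456 to 0.943). Relative to genes of like span, Srgap3 at 1.60 and the adaptor gene Nck2 at 1.55 were still past 1.5-fold. Farp1, an exchange factor gene linked to plexins, had the most counts, with 1210 against 1374, and a ratio of 1.42 (1.32 to 1.54).

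The list of receptor tyrosine kinase partners had 0 of 28 called higher and 1 lower, Pik3r2 at 0.637 (0.479 to 0.840), with a median of -0.17. Grb10 and Nf1 had the most counts, with ratios of 0.811 and 0.969.

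**Figure D5:**
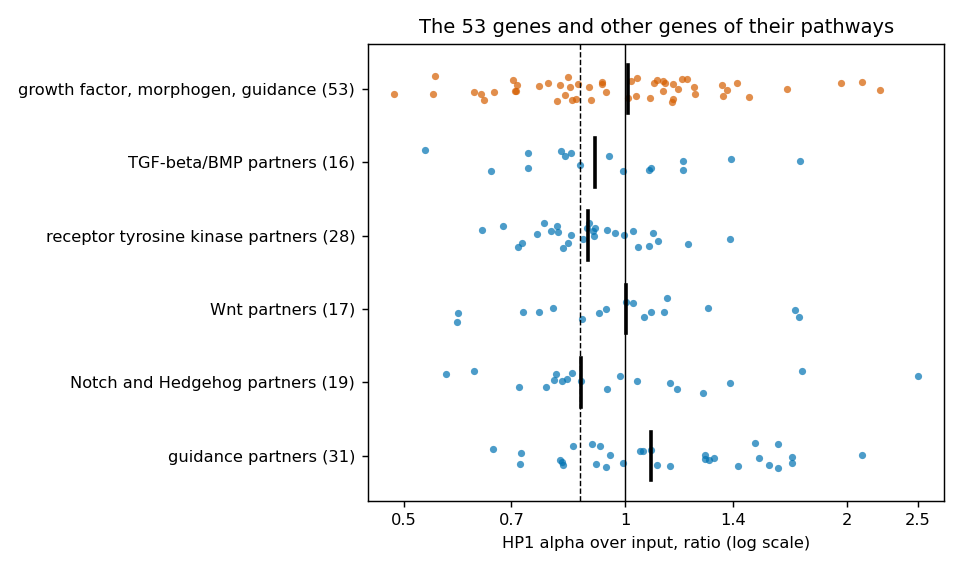
Ratio of HP1 alpha over input (log scale) for the 53 genes and for the listed genes of 5 partner lists, with the number of genes in parentheses. Each point is a gene, the vertical bars are medians, the solid line marks 1 and the dashed line the median of the table. The guidance partners have the highest median of the 5 lists.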

How the data were processed

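The deposited table holds read counts per gene for 1 HP1 alpha eCLIP library and 1 input library of NIH3T3 cells. It also holds the authors' ratio, per the file headers a fold change normalized to total mapped reads, which equals the count ratio times 1.66 in every row. STAR 2.6.0c, featureCounts and GRCm38 appear in the submitters' processing notes. Strand setting, counted features and treatment of duplicates: not given in the sources used here. In total 0 other columns of sample values were present. The mock column was assigned to the input, the only sample without antibody.

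Counts were divided by each library's total of listed counts. Ratios have exact 95% (Clopper-Pearson) intervals from the binomial split of the 2 counts, which cover counting error only, since reads may include PCR copies. Log2 ratios used a pseudocount of 0.5. All genes passed a minimum of 20 counts over both libraries. For the 53 genes the median interval's upper bound was 1.55 times its lower bound. The 31 gene pairs that were considered have exact conditional intervals and were chosen with their values known. Spans and positions came from RefSeq GRCm38.p6 by symbol (2969 genes, including the 53) or a unique synonym (119), and 46 genes had none. Calculations used Python 3.11.15 and scipy 1.17.1, and edgeR 4.0.16 and DESeq2 1.42.0 gave scaling factors only.

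Named in full are genes called at 1.5-fold on either scale, the extremes of each pathway and the 10 with the most counts, and, of each partner list, those called and the 2 with the most counts, of which 1 is not reported here. The members and lists were chosen with earlier results of these data known.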

Additional observations from a re-analysis of the deposited data

How the results depend on the processing

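No paired analysis was possible because only 1 library is analysed per group, and for the same reason no library could be left out. The number called higher at 2-fold, 2 as reported, was 3 with TMM factors, DESeq2 factors and with the authors' constant (Slit3 was added). It was 0 relative to genes of like span, and 1 where a sum of 400 counts was required. The number lower at 2-fold, 1 as reported (Fzd2), was 0 under each of these and with a pseudocount of 5. At 1.5-fold, 4 higher became 9 with TMM and 9 with DESeq2 factors (Efna5, Ephb2, Smad1, Smad3 and Tgfb2 were added) and 2 at the minimum of 400 counts. The 7 lower became 3 with TMM and 3 with DESeq2 factors (Ephb4, Fzd2 and Wnt5a) and 2 relative to genes of like span. The minimum of 400 counts removed all 7, with sums from 151 to 300, and also Ror1 (297) and Smad6 (349). The smaller numbers called at that minimum were therefore fixed by the filter and are not changed calls. Factors shift all log2 ratios alike, and the minimum kept 24 of the 53 genes. With it, 1 gene was higher and 1 lower relative to genes of like span.

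The median log2 ratio of the 53 genes, 0.014, changed sign to -0.019 relative to genes of like span, and that of the guidance genes, 0.038, to -0.17. For the Wnt genes, the median of -0.25 became -0.054 under TMM scaling and -0.042 under DESeq2 scaling. Of these genes the minimum of 400 counts kept only Lrp6 (-0.25) and Ror2 (1.07), and the median of 0.41 there is their midpoint. The TGF-beta and BMP median of 0.20 became -0.032 at that minimum, which kept only Smad3, Tgfbr3, Bmpr1a and Bmpr2. Both changes of sign come from the genes removed, since the filter alters no gene's ratio. The receptor tyrosine kinase median of 0.17 was 0.37 and 0.38 with TMM and DESeq2 factors. Leaving out the 10 most abundant genes or keeping 1 gene per overlap group left each of these counts within 1.5 times and moved no median by more than 0.010. Genes near 100 counts have the widest intervals.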
